A study of Mus musculus with 51 samples.

Results

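The nuclear genes for the protein subunits of the mitochondrial respiratory chain were followed in mouse alveolar macrophages after conidia of the mould Aspergillus fumigatus had been instilled into the lungs. Members were the genes whose only symbol on the array platform began with Nduf, Sdh, Uqcr, Cox4 to Cox8 or Atp5. This rule found 160 probe sets for 87 genes, of 12393 genes that had a probe set with 1 symbol. A gene with several probe sets, as 46 members had, is described by whichever probe set had the highest mean log2 signal over all 51 arrays. The members comprised 34 subunit genes of complex I and 5 of its assembly factors, 4 subunit genes of complex II and 3 of its assembly factors, 8 genes of complex III, 10 of complex IV and 6 of its tissue-restricted isoforms, and 17 of the ATP synthase. The rule goes by symbol and takes no measured value, though it was set with earlier results of these data known. Ndufa4, now placed with complex IV, is counted under complex I by its symbol. Another 8 probe sets carried such a symbol beside other symbols and were left out.

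Macrophages were collected from gp91phox-/- mice (KO), in which the gene for gp91phox, the catalytic subunit of the phagocyte NADPH oxidase, is disrupted, and from C57Bl/6 mice (WT). KO groups of 3 arrays each were macrophages of untreated mice at 0 h and macrophages taken 2 h and 4 h after a mock instillation, conidia labelled e6 or conidia labelled e7. WT groups of 4 arrays each covered the same conditions, and 2 further WT arrays came from macrophages 4 h after polystyrene beads. The labels give the conidia as e6 and e7, so e7 is the higher dose, and state neither a number of beads nor an age. The gp91phox disruption is in every cell of the KO mice and not only in macrophages. For the WT 4 h mock arrays the title says mock but the treatment text says conidia; they were taken as mock by title. The replicates are called biological in the labels, but the number of mice behind an array is not stated, so p-values measure the spread between these arrays.

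The respiratory chain sits in the inner mitochondrial membrane. Complex I takes electrons from NADH and complex II, which is also the succinate dehydrogenase of the citric acid cycle, takes them from succinate; complex III passes them to cytochrome c and complex IV to oxygen. Complexes I, III and IV pump protons, and the ATP synthase uses the proton gradient to make ATP. Most subunits are encoded in the nucleus and are members here, while a core set is encoded in mitochondrial DNA and has no member by this rule. Alveolar macrophages are known to rely mainly on oxidative metabolism, and macrophages that meet microbial products can shift towards glycolysis, and succinate oxidation is among the steps studied there.

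Promoters of many of these genes carry sites of the nuclear respiratory factor NRF1, of ETS factors such as GABP and of YY1. RefSeq promoter windows of assembly GRCm38.p6, 250 bases before to 50 after the gene's start, were found for 73 of the 87 members. The motif GCGCATGCG, the core of an NRF1 site, stood in 9 of 73 member promoters on either strand, or 12.3%, against 1.81% of all 27025 promoters in the table. With 1 open base, GCGCANGCG, which takes in the stricter motif, the share was 26% against 6.47%. The ETS motif CCGGAAG also stood in 26% of member promoters, against 9.12% of all, the YY1 motif AAGATGGC in 11% against 2.88%, and TATAAA in 9.59% against 14.2%. Of the 11 members that fell in both the KO 2 h and the WT 4 h comparison of e7 conidia with mock, 10 had a window, and the 3 with a match in the 250 bases before the start are shown 5′ to 3′; capitals mark GCGCANGCG or CCGGAAG on either strand. They lie on the minus strand of GRCm38.p6 at chr5:115348959-115349208 for Cox6a1, a subunit of complex IV, at chr2:36049339-36049588 for Ndufa8, a subunit of complex I, and at chr9:44920743-44920992 for Atp5l, subunit g of the ATP synthase.
Cox6a1: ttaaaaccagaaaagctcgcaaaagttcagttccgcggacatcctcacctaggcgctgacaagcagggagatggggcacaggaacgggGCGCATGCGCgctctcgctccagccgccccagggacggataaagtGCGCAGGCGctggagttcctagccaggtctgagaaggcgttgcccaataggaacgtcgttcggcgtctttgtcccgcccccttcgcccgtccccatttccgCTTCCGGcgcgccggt
Ndufa8: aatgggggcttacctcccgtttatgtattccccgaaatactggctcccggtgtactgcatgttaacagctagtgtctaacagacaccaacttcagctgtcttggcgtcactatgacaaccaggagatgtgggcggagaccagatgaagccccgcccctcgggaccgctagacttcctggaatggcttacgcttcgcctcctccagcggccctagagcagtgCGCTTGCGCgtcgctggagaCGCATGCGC
Atp5l: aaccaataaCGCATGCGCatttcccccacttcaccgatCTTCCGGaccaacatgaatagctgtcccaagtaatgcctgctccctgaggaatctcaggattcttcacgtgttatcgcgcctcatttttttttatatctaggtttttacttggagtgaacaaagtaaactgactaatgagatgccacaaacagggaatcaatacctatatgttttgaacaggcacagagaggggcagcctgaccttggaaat
A match of letters is no measured binding. The WT 4 h calls behind the choice of these genes depended on e7 replicates 2 and 3, as described below. Of the 44 promoters of members that were lower in either of those comparisons 11 held GCGCANGCG and 11 held CCGGAAG, and of the 29 other member promoters 8 held each, so the motifs stood in both sets.

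The arrays carried macrophage RNA by their markers. The mean log2 signal of 12 alveolar macrophage markers lay between 12.84 and 13.25 on KO arrays and between 12.51 and 13.15 on WT arrays, and the lowest single value was 10.14, for Car4. Cybb, which encodes gp91phox, lay between 6.77 and 9.06 on KO arrays and between 10.59 and 12.12 on WT arrays with no overlap. Some arrays stood apart. The mean of 12 neutrophil markers was above 7 on 3 WT arrays at 4 h, which were e7 replicate 3 (7.31), e6 replicate 4 (7.70) and mock replicate 3 (8.43). The 3'/5' ratio of control transcripts, a sign of RNA quality that grows with degradation or short labelling products, differed between groups, with log2 values of 0.92 to 3.99 on KO arrays and 0.93 to 5.32 on WT arrays. In bulk samples, fewer cells of a type and less RNA per cell cannot be told apart.

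The mean signal of the members was lower with e7 conidia than with mock in both genotypes at both times, and most clearly apart in KO macrophages at 2 h. The mean log2 signal over the 87 genes was 10.18, 10.26 and 10.24 on the KO 2 h e7 arrays, against 10.59, 10.64 and 10.67 on the KO 2 h mock arrays. In WT at 4 h it was 10.21, 10.12, 10.002 and 10.52 with e7, against 10.54, 10.68, 10.60 and 10.47 with mock. The KO groups did not overlap, while WT 4 h e7 replicate 4 lay among the mock arrays. WT 2 h e7 arrays had means of 10.32, 10.40, 10.44 and 10.26, all below the WT 2 h mock arrays at 10.67, 10.74, 10.67 and 10.52. KO macrophages 4 h after e7 stood at 10.40, 10.44 and 10.38, against 10.61, 10.60 and 10.42 with mock, so these groups overlapped. Both beads arrays, at 10.16 and 10.33, lay below every WT 4 h mock array. With e6 conidia the KO groups averaged 10.66 at 2 h and 10.44 at 4 h, beside 10.63 and 10.54 with mock, and the WT groups 10.55 and 10.53, beside 10.65 and 10.57 with mock. Quantile normalization, which gives all arrays 1 distribution, left this order: the KO 2 h e7 arrays were then at 10.14, 10.24 and 10.20, against 10.59, 10.63 and 10.67 for mock. The 3'/5' ratios differed between these groups too. They were higher on all KO 2 h e7, WT 2 h e7 and beads arrays than on the mock arrays of the same genotype and time. In WT 4 h e7 they overlapped with mock, and in KO 4 h e7 they were lower. The part of RNA quality in the member means was not tested.

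**Figure D1:**
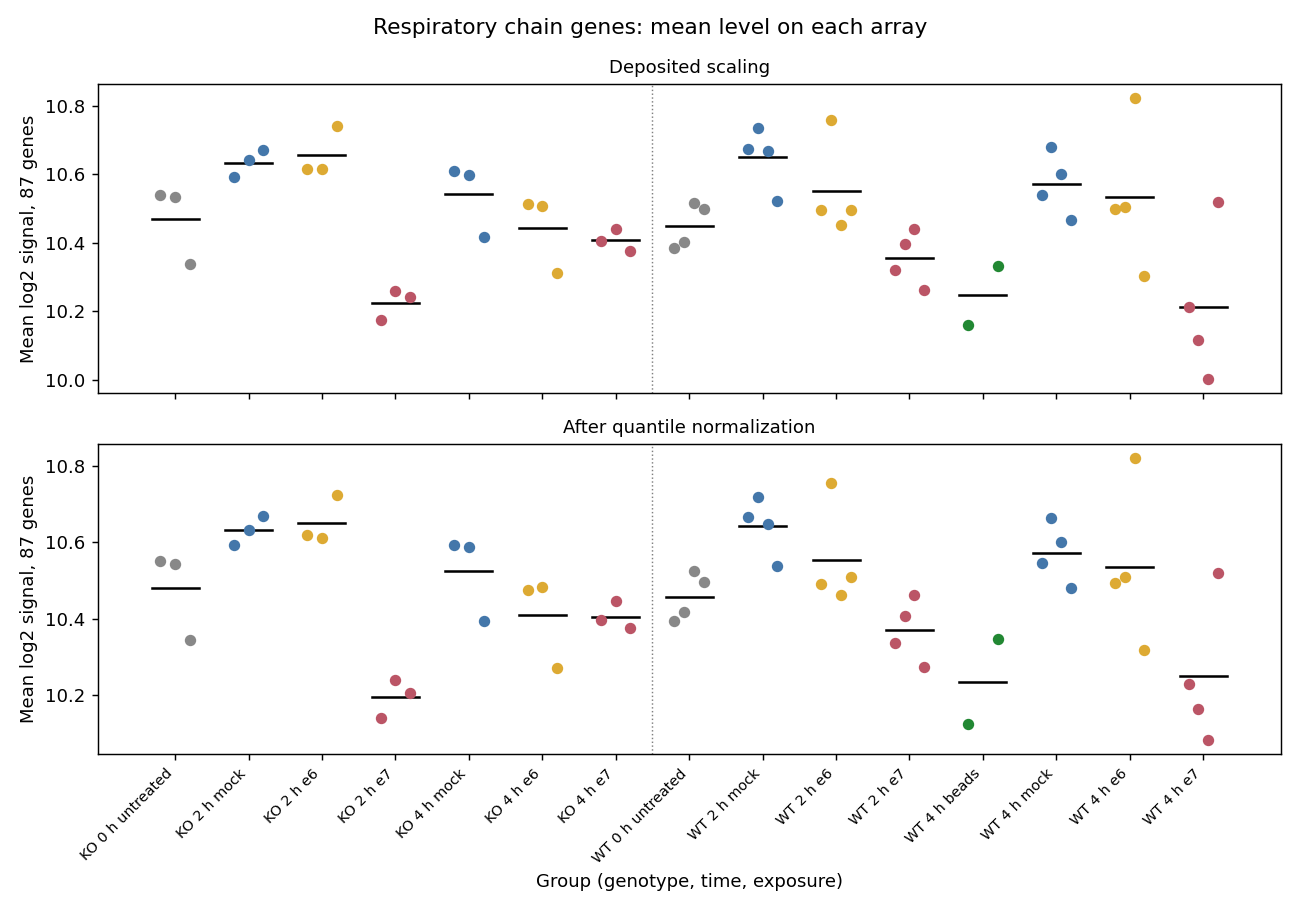
Mean log2 signal of the 87 members on each array (points, y axis) by group (x axis, KO left of WT), with the group mean as a black line, on the deposited scaling in the top panel and after quantile normalization in the bottom panel. The KO 2 h e7 arrays at 10.18 to 10.26 lie below the KO 2 h mock arrays, and 3 of 4 WT 4 h e7 arrays lie below the WT 4 h mock arrays in both panels.

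Members did not move as a block. Subunit c of the ATP synthase, the ring that turns with the proton flow, is encoded by 3 genes, and these bounded the range. Over the 15 group means Atp5g3 had the smallest range of all members, 0.28 on the log2 scale, and Atp5g2 the largest, 2.63. The 2 genes also differ in signal and noise. Their mean log2 signals were 13.43 and 9.51, with limma standard errors of 0.085 and 0.38 for e6 minus mock in WT at 2 h. The lowest group mean of Atp5g2, 8.02, was that of the 2 beads arrays. The 6 tissue-restricted isoforms of complex IV are forms known mainly from muscle, lung or testis. The log2 signal of Cox8b, the heart and muscle isoform, ran between 1.08 and 5.57 over the 51 arrays, and that of Cox4i2, the lung isoform of subunit IV, averaged 4.86. None of the 6 was called in the KO 2 h or WT 4 h comparison of e7 with mock.

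**Figure D2:**
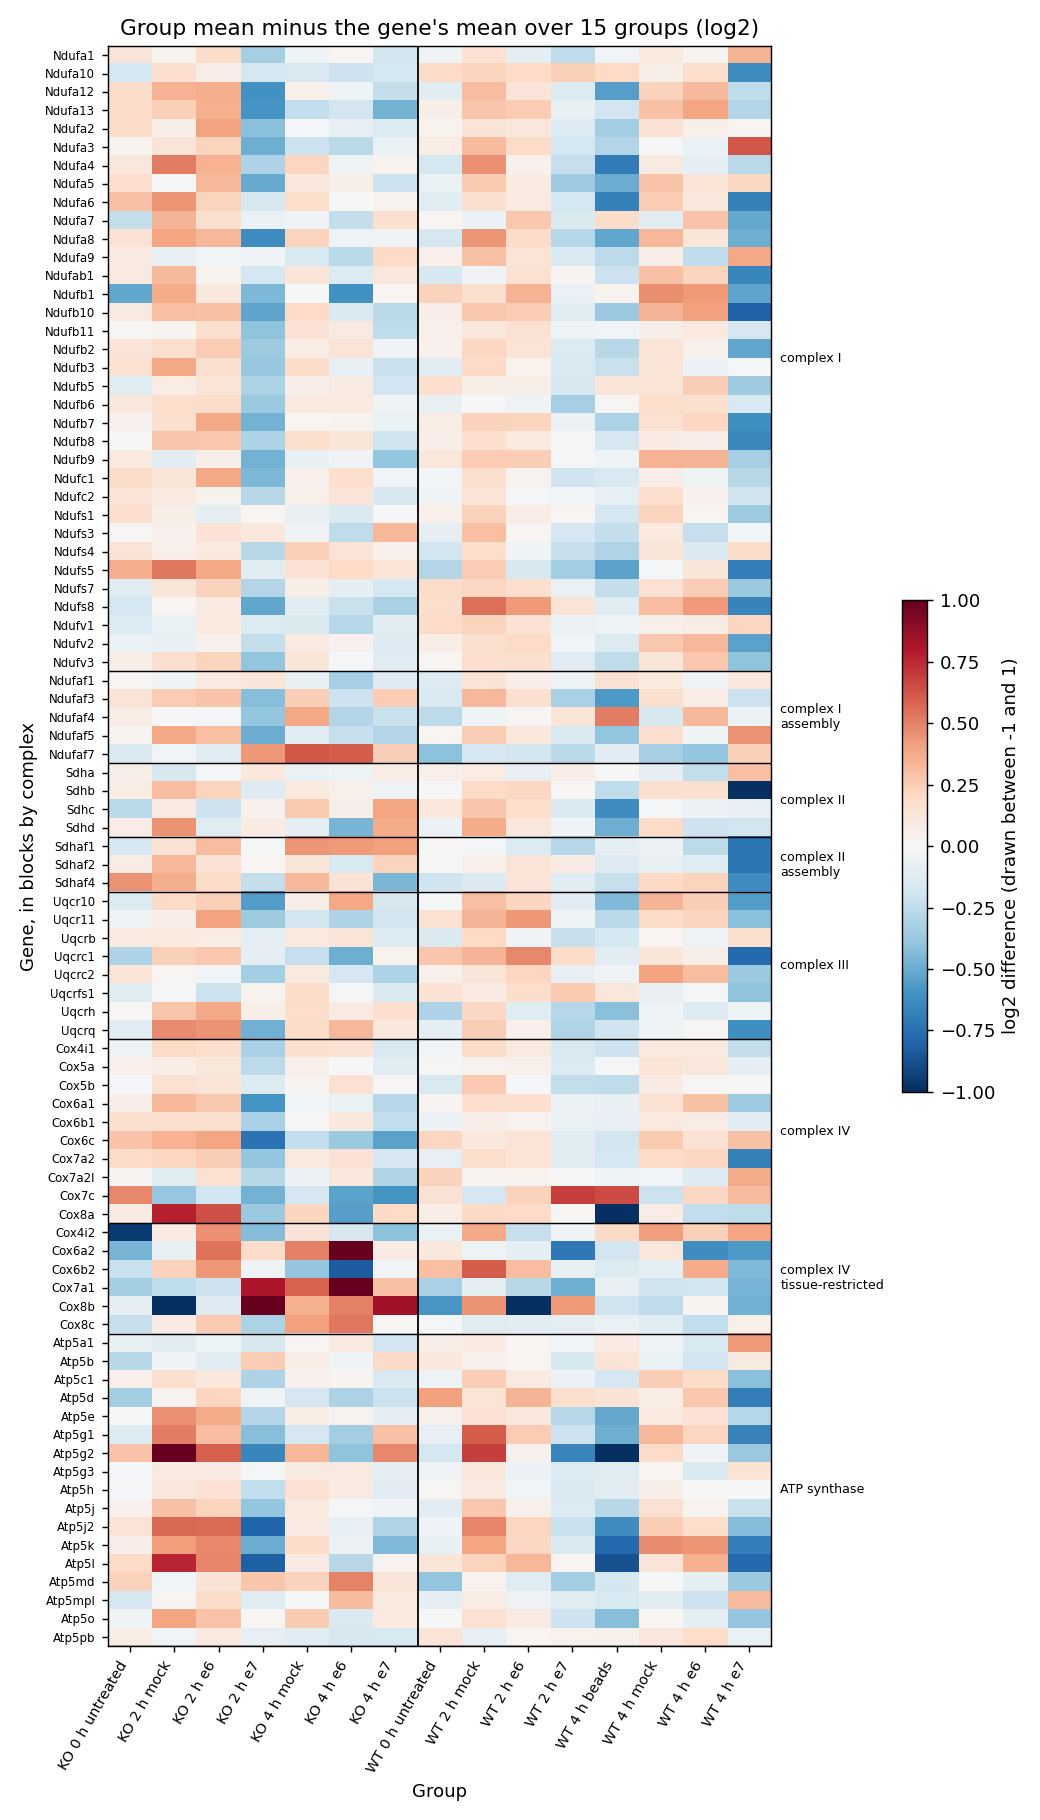
Mean log2 signal of each member (lines, in blocks by complex) in each of the 15 groups (columns), minus the member's mean over the 15 group means, drawn between -1 and 1. In the KO 2 h e7 column most complex I, complex IV and ATP synthase members are below their own mean, and in the WT 4 h e7 column Sdhb is below its mean while Sdha and Ndufa3 are above theirs.

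The comparison of e7 conidia with mock at 2 h in KO mice asks how macrophages without the oxidase answer the higher dose early. Of 87 members 24 fell and none rose, and 2.54% of all probe sets fell and 6.11% rose in this comparison. The members' median log2 difference was -0.41, while that of all genes was 0.23; after quantile normalization the medians were -0.40 and 0.02, 22 members fell and Sdha rose, where 4.12% of all probe sets fell. Among 1 probe set per gene, as the members are counted, 2.65% of genes fell. A difference below 0 was seen for 76 of 87 members, against 34.9% of all genes. Here and below a call is an adjusted p under 0.05 from limma with Benjamini-Hochberg adjustment over all probe sets, and the value behind ± is limma's standard error for that log2 difference. Among the 58 members with a mean log2 signal of at least 10, 18 fell, and 6.65% of all genes with such signals fell.

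The falls were spread over complex I, complex IV and the ATP synthase. Of 34 complex I subunits 12 fell, of 5 complex I assembly factors 2, of 10 common complex IV subunits 5, of 17 ATP synthase genes 4 and of 8 complex III genes 1. No complex II subunit or assembly factor was called. All 10 common complex IV subunits had a difference below 0, with a median of -0.51, and the medians of complex I and the ATP synthase were -0.52 and -0.38.

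Among called members, ATP synthase genes gave the largest differences; Cox8b, a dim probe set, had a difference of 2.11 and was not called (adjusted p = 0.0821). Atp5j2, subunit f in the membrane part, had log2 signals of 10.95, 10.84 and 10.80 on e7 arrays, against 12.24, 12.27 and 12.18 on mock arrays, and fell by 1.37 ± 0.22 (adjusted p = 0.000334). Atp5l, subunit g, lay at 7.90, 7.91 and 7.95, against 9.37, 9.45 and 9.67, and fell by 1.57 ± 0.36 (adjusted p = 0.00648). In both genes the 3 e7 arrays lay close together and over 1 log2 unit below every mock array. Atp5g2 lay at 9.03, 8.61 and 8.86, against 10.32, 10.81 and 10.81, and fell by 1.81 ± 0.44 (adjusted p = 0.01); its other probe set, which is dim, gave a difference of 1.25 (adjusted p = 0.126). The second probe set of Atp5j2 fell too, by 1.18 (adjusted p = 0.015).

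Of complex IV, Cox6a1, the liver-type form of subunit VIa, lay at 12.13, 12.24 and 12.36 on e7 arrays, against 12.98, 13.28 and 13.26 on mock arrays, and fell by 0.93 ± 0.17 (adjusted p = 0.000971). Cox6c lay at 10.91, 11.11 and 11.15, against 12.07, 12.14 and 12.23, and fell by 1.09 ± 0.21 (adjusted p = 0.00153). The groups did not overlap in either gene, and the second probe sets fell as well, by 1.44 for Cox6a1 and 0.62 for Cox6c. Cox8a fell by 1.15 ± 0.33 (adjusted p = 0.0269). Cox4i1, the common form of subunit IV and named after its values were seen, lay at 12.80, 12.76 and 12.90, against 13.27, 13.38 and 13.39, and fell by 0.52 (adjusted p = 0.014), though not after quantile normalization (adjusted p = 0.0649).

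Of complex I, Ndufa8, an accessory subunit on the side of the intermembrane space, lay at 10.19, 10.07 and 10.13 on e7 arrays, against 11.31, 11.07 and 11.06 on mock arrays, and fell by 1.02 ± 0.24 (adjusted p = 0.0083). Ndufa12, an accessory subunit of the matrix arm, lay at 10.35, 10.69 and 10.74, against 11.48, 11.57 and 11.57, and fell by 0.95 ± 0.19 (adjusted p = 0.00237). Each e7 array lay below each mock array in both. Of the other 3 probe sets of Ndufa12, 2 fell, by 0.97 and 1.06, and 1 had a difference of -0.11. Ndufa13, also known as GRIM-19, fell by 0.83 ± 0.18 (adjusted p = 0.00595), Ndufb10 by 0.83 ± 0.26 (adjusted p = 0.0396) and the assembly factor Ndufaf5 by 0.88 ± 0.24 (adjusted p = 0.0193). Uqcrq of complex III fell by 0.95 ± 0.30 (adjusted p = 0.0428), but 1 of its other probe sets rose by 1.49 and the mean of its probe sets had the opposite sign. Among 18 other probe sets of the members called here, 14 had the same sign, 9 of them were called too, and 1 was called in the opposite direction.

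Several catalytic subunits were not called. Ndufv2, an iron-sulfur subunit of the complex I electron input module, lay at 10.76, 11.02 and 11.19, against 11.09, 11.07 and 11.29, so the groups overlapped (difference -0.16, adjusted p = 0.53). Ndufs1, the largest subunit of complex I, had a difference of -0.04 (adjusted p = 0.881). Sdha, the flavoprotein of complex II, lay at 12.44, 12.36 and 12.46, against 12.18, 12.16 and 12.11; every e7 array was above every mock array, with a difference of 0.27 that missed the threshold on the deposited scaling (adjusted p = 0.133) and was called after quantile normalization (0.42, adjusted p = 0.0174).

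The 3'/5' log2 ratios were 1.45, 1.85 and 3.0 on the KO 2 h e7 arrays, against 1.22, 0.9995 and 0.92 on the mock arrays, so all e7 arrays were above the mock arrays. With this ratio as a covariate 19 members were called and the median difference was -0.38. The mean of 5 T cell markers was 4.55, 4.59 and 4.62 with e7, against 1.92, 2.97 and 4.29 with mock, and 2 of the 5 rose, Cd4 and Cd8a. All of these T cell means were below a log2 signal of 6, the level used for dim probe sets. Of 12 neutrophil markers 1 rose, Camp, and of 12 alveolar macrophage markers 1 fell, Cd68. The part of these markers in the members' differences was not tested. A fit with the e7 and mock arrays of this comparison alone called 8 members and array weights called 50. Leaving out 1 array called between 12 (without mock replicate 3) and 21; without e7 replicate 1 or 3 it was 13 and 14. The 7 genes Atp5l, Atp5j2, Cox6c, Ndufa8, Ndufa12, Cox6a1 and Ndufa13 were called as lower under all 14 alternatives run for this comparison.

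**Figure D3:**
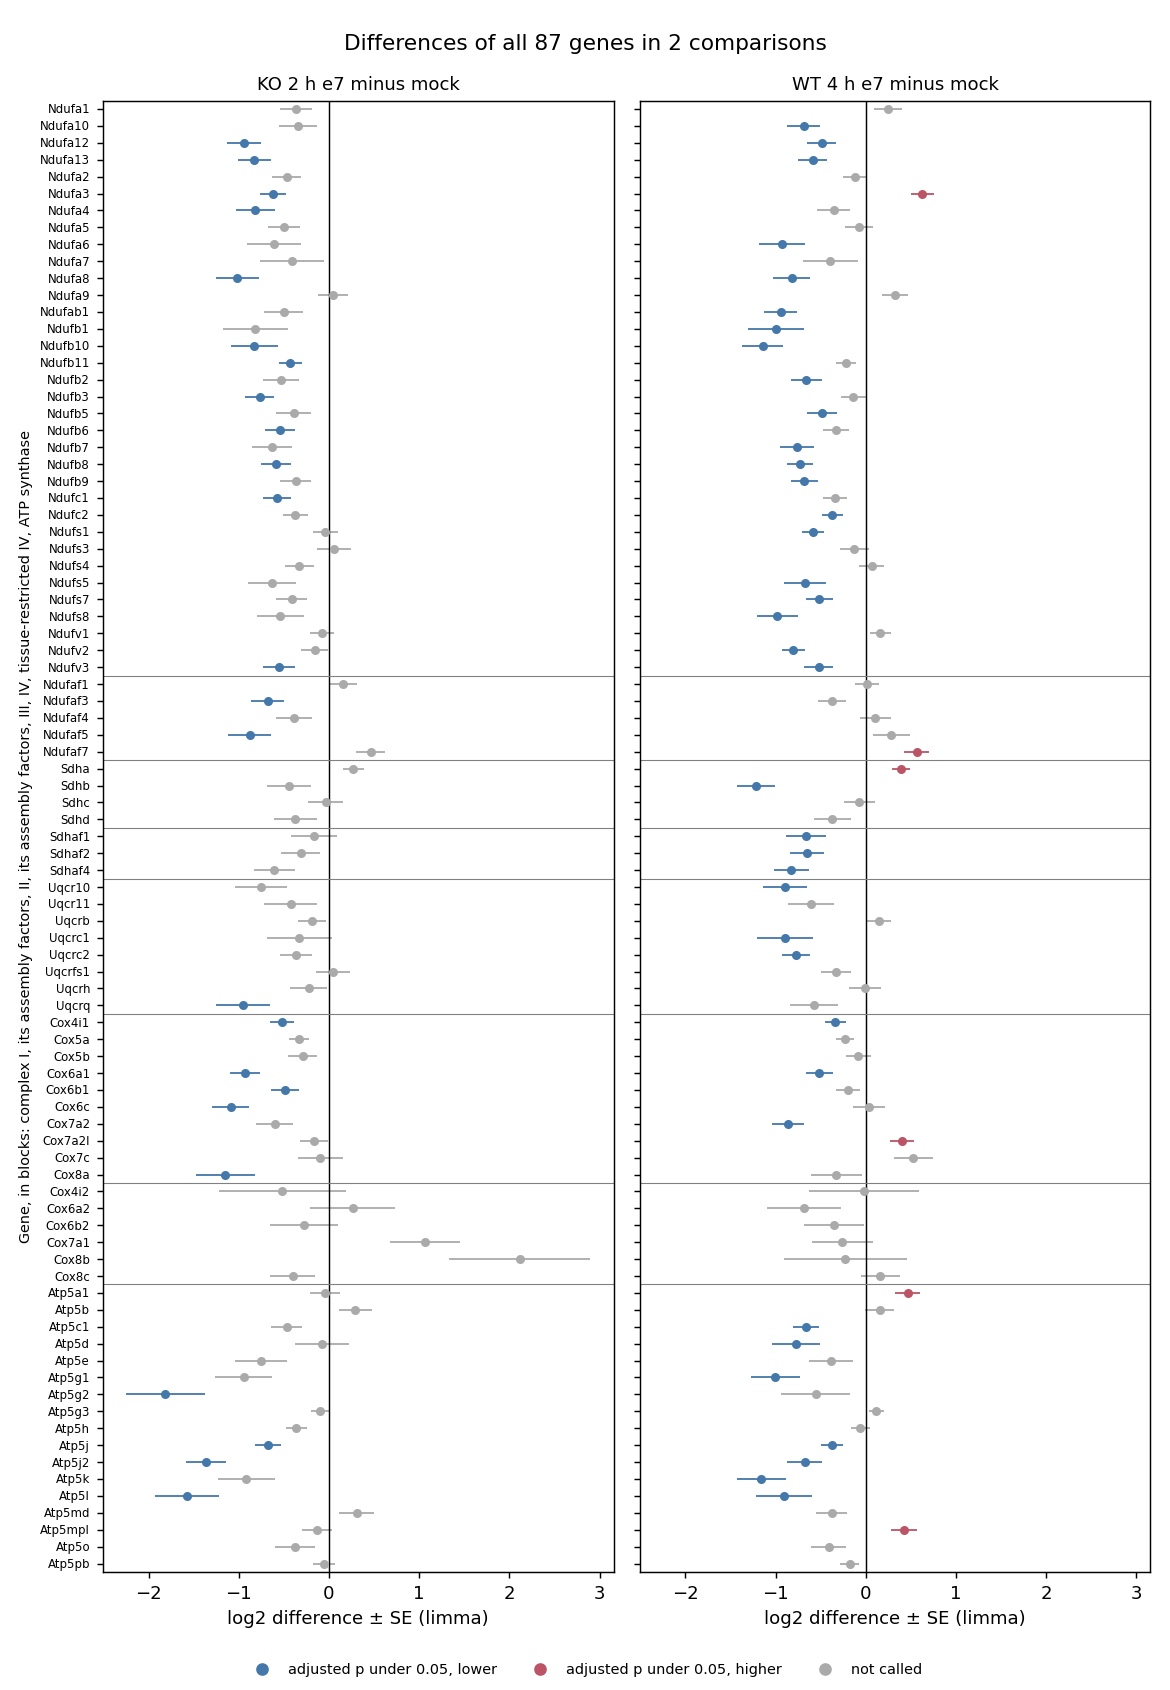
Log2 difference (x axis, with its standard error as a bar) of the 87 members in KO at 2 h, e7 conidia minus mock, and in WT at 4 h, e7 conidia minus mock, coloured blue where called as lower, red where called as higher and grey where not called. In the KO panel 24 members are called as lower, and in the WT panel 37 are lower and 6 higher.

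The WT 4 h comparison of e7 conidia with mock asks the same of macrophages with an intact oxidase at the later time. Of 87 members 37 fell and 6 rose, and 9.68% of all probe sets fell and 5.84% rose; among 1 probe set per gene 11.4% fell. The median log2 difference of the members was -0.37, that of all genes -0.08. Of the 58 members with a mean log2 signal of at least 10, 27 fell and 5 rose; of all genes with such signals 18.5% fell and 15.3% rose. By complex, 20 of 34 complex I subunits fell and 1 rose, all 3 complex II assembly factors fell, 3 of 8 complex III genes fell, 3 of 10 common complex IV subunits fell and 1 rose, and 7 of 17 ATP synthase genes fell and 2 rose. Quantile normalization left 32 lower and 5 higher, where 7.35% of all probe sets were lower.

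These counts rest on arrays that differ among themselves, so the total is also given without some of them. The counts by complex and by signal are given with all arrays only. Without e7 replicates 2 and 3, which had 3'/5' log2 ratios of 2.34 and 3.83 beside 1.64 and 1.26 for replicates 1 and 4, the median difference was -0.19 and 1 member was called, Ndufv2. Mock replicate 4, which was kept, also had a ratio of 2.34. The median log2 signal over all genes was 6.66 and 6.51 on e7 replicates 2 and 3, below all other arrays of the series. It was 6.92 and 7.09 on replicates 1 and 4. Without the 3 WT 4 h arrays with a neutrophil marker mean above 7, 12 members fell and 1 rose, with a median of -0.28. A fit with the e7 and mock arrays alone called none, with 53 members at an unadjusted p under 0.05 in the limma fit of all arrays. Leaving out 1 array called between 21 (without e7 replicate 3) and 52 (without e7 replicate 4); it was 23 without e7 replicate 2 and 26 without mock replicate 2. The mock arrays had 3'/5' log2 ratios of 1.37, 1.503, 1.19 and 2.34, and with the ratio as a covariate 29 members fell and 4 rose. The neutrophil marker mean was 5.22, 5.56, 7.31 and 5.82 with e7, against 4.77, 5.37, 8.43 and 5.11 with mock; 2 of the 12 markers fell, Csf3r and Mmp8, and none rose. The alveolar macrophage marker mean was 12.66, 12.69, 12.51 and 12.87 with e7, against 12.996, 12.99, 12.86 and 12.87 with mock, and 3 of 12 fell, Siglecf, Car4 and Cd68. Their part in the members' differences was not tested.

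Complex I held the most called members. Ndufv2, named after its values were seen because it kept its call in 17 of 18 alternatives, lay at 10.75, 10.44, 10.55 and 11.03 on e7 arrays, against 11.44, 11.64, 11.49 and 11.42 on mock arrays, and fell by 0.80 ± 0.13 (adjusted p = 0.000113). Every e7 array lay below every mock array, and both other probe sets fell, by 0.96 and 0.997. Without e7 replicates 2 and 3 its difference was -0.60 (adjusted p = 0.0415), and without the arrays high in neutrophil markers -0.76 (adjusted p = 0.00306). Ndufb10, a membrane arm subunit, lay at 9.60, 8.84, 8.75 and 10.22, against 10.37, 10.78, 10.43 and 10.40, and fell by 1.14 ± 0.22 (adjusted p = 0.000661). Its groups did not overlap either, but e7 replicates 2 and 3 lay well below replicates 1 and 4. Ndufs8, an iron-sulfur subunit, fell by 0.98 ± 0.23 (adjusted p = 0.00279), and Ndufab1, the mitochondrial acyl carrier protein, by 0.94 ± 0.18 (adjusted p = 0.000646). Ndufb1 and Ndufa6 fell by 1.0 ± 0.31 and 0.93 ± 0.26. Without e7 replicates 2 and 3, none of these other complex I genes was called.

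In complex II the flavoprotein and the iron-sulfur subunit differed in opposite directions. Sdhb, the iron-sulfur subunit, lay at 10.71, 10.07, 9.41 and 11.47 on e7 arrays, against 11.44, 11.68, 11.63 and 11.77 on mock arrays, and fell by 1.21 ± 0.21 (adjusted p = 0.000218). Sdha lay at 12.48, 12.77, 12.84 and 12.36, against 12.22, 12.18, 12.08 and 12.40, and rose by 0.39 ± 0.10 (adjusted p = 0.00696). In both genes e7 replicates 2 and 3 were farthest from mock, and replicate 4 fell within the mock range. Without those 2 replicates the differences were -0.54 for Sdhb (adjusted p = 0.104) and 0.20 for Sdha (adjusted p = 0.452). Without the arrays high in neutrophil markers they were -0.88 (adjusted p = 0.00802) and 0.27 (adjusted p = 0.141). Both probe sets of Sdha rose, by 0.39 and 0.35. The membrane anchors Sdhc and Sdhd had differences of -0.07 and -0.37 and were not called, while the assembly factors Sdhaf1, Sdhaf2 and Sdhaf4 fell by 0.66, 0.65 and 0.82.

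Complex III, complex IV and ATP synthase genes with large falls included Uqcrc1, a core subunit of complex III, by 0.90 ± 0.31 (adjusted p = 0.045), Uqcr10 by 0.90 ± 0.25 (adjusted p = 0.0105) and Cox7a2 of complex IV by 0.87 ± 0.18 (adjusted p = 0.000975). Uqcrc2, the other core subunit of complex III and named after its values were seen, lay at 11.66, 11.52, 11.65 and 11.74 on e7 arrays, against 12.65, 12.49, 12.48 and 12.05 on mock arrays, with no overlap. Atp5k, subunit e of the ATP synthase, lay at 10.06, 9.56, 9.86 and 10.58, against 11.06, 11.49, 11.52 and 10.62, and fell by 1.16 ± 0.27 (adjusted p = 0.00311). Every e7 array was below every mock array, though e7 replicate 4 and mock replicate 4 lay close to each other. Atp5g1, the third gene for subunit c, fell by 1.0 ± 0.27 (adjusted p = 0.0102). Atp5l fell by 0.90 ± 0.31 (adjusted p = 0.041), with e7 arrays at 7.69, 7.45, 7.49 and 9.22, against 8.87, 8.76, 9.29 and 8.54, so replicate 4 was among the mock values.

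The 6 members that rose were Ndufa3, Ndufaf7, Atp5a1, Atp5mpl, Cox7a2l and Sdha. Once the e7 replicates with the lowest median signal over all genes were left out, Ndufv2 was the only member called, as described above. No rise, that of Ndufa3 included, kept its call in that fit. Ndufa3, an accessory subunit of complex I, lay at 13.10, 13.17, 13.34 and 12.82 on e7 arrays, against 12.37, 12.54, 12.49 and 12.53 on mock arrays, and rose by 0.63 ± 0.13 (adjusted p = 0.000922). The groups did not overlap, the second probe set rose by 0.50 (adjusted p = 0.0036), and without the arrays high in neutrophil markers the difference was 0.55 (adjusted p = 0.0228). Ndufaf7, a methyltransferase needed for complex I assembly, rose by 0.56 ± 0.14 (adjusted p = 0.00563). Atp5a1, the alpha subunit of the ATP synthase head, rose by 0.46 ± 0.14 (adjusted p = 0.0215), but its other probe sets had differences of -0.23 and -0.42 and their mean turned the sign. Atp5mpl rose by 0.43 ± 0.14 (adjusted p = 0.038), and Cox7a2l, known as a factor of the supercomplex of complexes III and IV, by 0.41 ± 0.13 (adjusted p = 0.0321). Among 37 other probe sets of the members called in this comparison 30 had the same sign, 21 of them were called and none was called in the opposite direction.

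**Figure D4:**
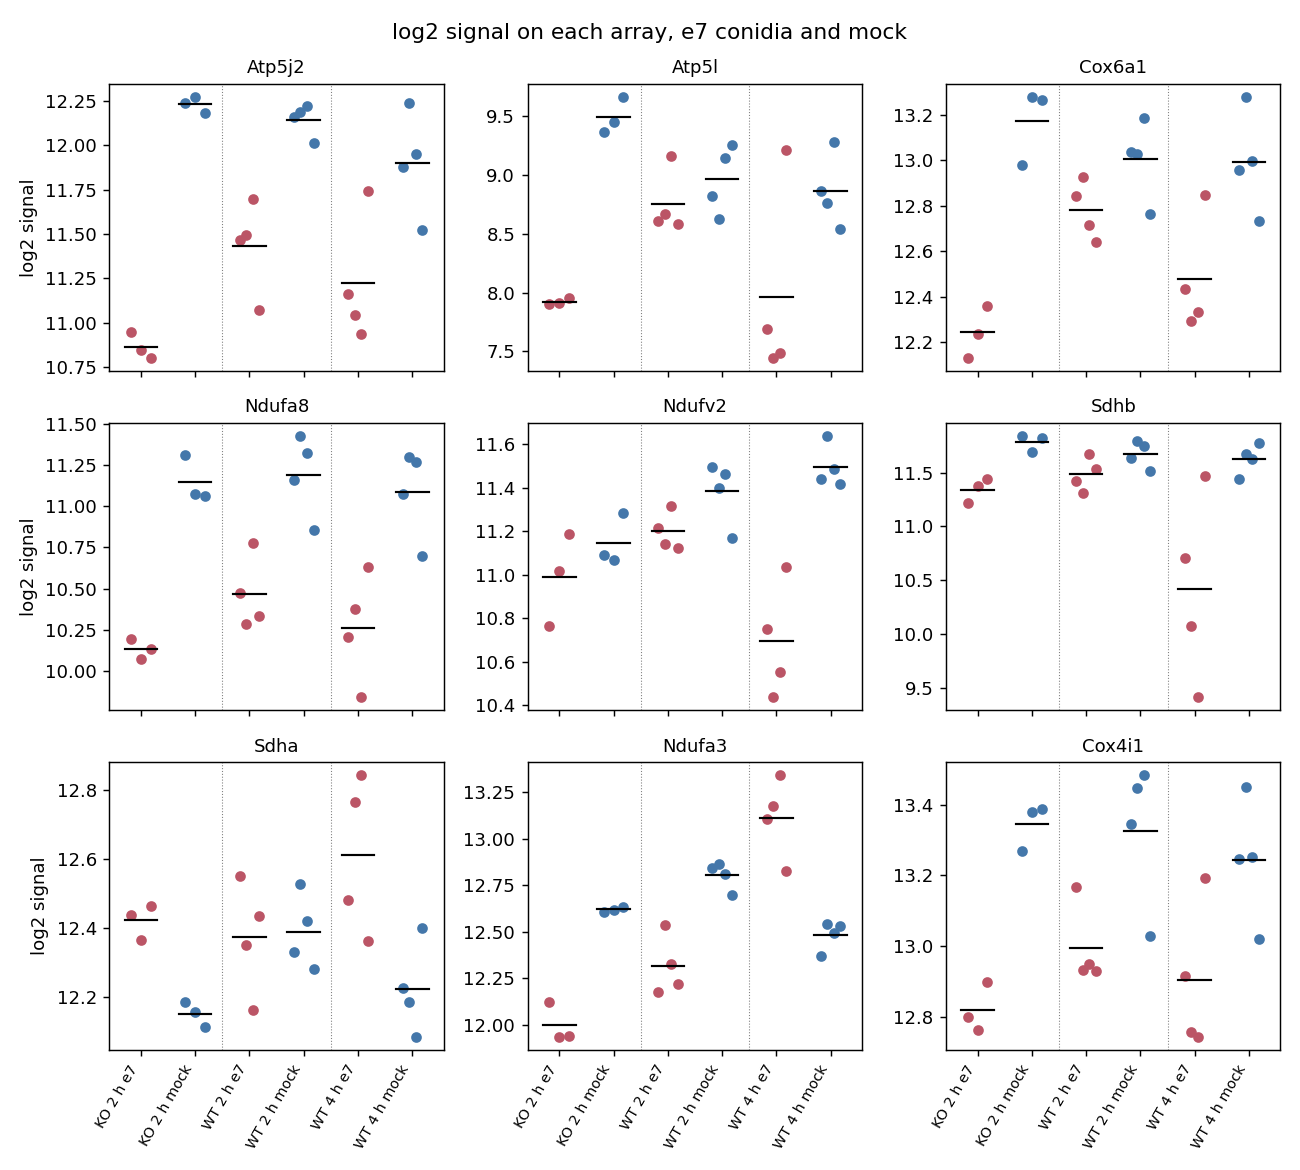
Log2 signal (y axis, own range in each panel) of 9 members on each array of the e7 and mock groups in KO at 2 h, WT at 2 h and WT at 4 h, with e7 left of mock. Atp5j2 and Cox6a1 are lower with e7 in the KO 2 h groups without overlap, Ndufv2 is lower on all WT 4 h e7 arrays, and Ndufa3 is lower with e7 in both 2 h comparisons and higher in WT at 4 h.

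The KO 2 h and WT 4 h comparisons share no array, and 11 members fell in both: Atp5j, Atp5j2, Atp5l, Cox4i1, Cox6a1, Ndufa12, Ndufa13, Ndufa8, Ndufb10, Ndufb8 and Ndufv3. These are 45.8% of the 24 members lower in KO at 2 h and 29.7% of the 37 lower in WT at 4 h. Of all 87 members 42.5% were lower in WT at 4 h and 27.6% in KO at 2 h, so both shares of the overlap were close to these. Without WT 4 h e7 replicates 2 and 3 the only member called in WT at 4 h was Ndufv2, which is not in the overlap. The largest falls were different genes. Sdhb had a difference of -0.44 in KO at 2 h (adjusted p = 0.253) and Cox6c one of 0.03 in WT at 4 h, neither called. Ndufa3 fell in KO at 2 h by 0.62 (adjusted p = 0.0089), with e7 arrays at 12.12, 11.94 and 11.94, against 12.61, 12.62 and 12.63, and rose in WT at 4 h. The 2 comparisons differ in both genotype and time, so the difference between them was not tested.

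In WT at 2 h, 6 members fell and 1 rose with e7 conidia against mock, where 0.769% of all probe sets fell and 0.844% rose. The median difference of the members was -0.28, that of all genes -0.02, and 77 of 87 members had a difference below 0, against 52.4% of all genes. Atp5j2 lay at 11.47, 11.49, 11.70 and 11.07 on e7 arrays, against 12.16, 12.19, 12.22 and 12.01 on mock arrays, and fell by 0.71 ± 0.19 (adjusted p = 0.047). Ndufa5, a matrix arm subunit of complex I, lay at 10.57, 10.64, 10.30 and 10.27, against 11.07, 11.22, 10.93 and 11.02, and fell by 0.62 ± 0.15 (adjusted p = 0.0306), with a second probe set that fell by 1.66. Neither gene's groups overlapped. Ndufa4 fell by 0.68 ± 0.18 (adjusted p = 0.0443), the assembly factor Ndufaf3 by 0.65 ± 0.16 (adjusted p = 0.0253), Cox5b by 0.51 ± 0.14 (adjusted p = 0.0466) and Ndufa3 by 0.49 ± 0.13 (adjusted p = 0.0389). Cox7c lay at 8.37, 7.97, 7.56 and 7.90, against 7.07, 7.46, 6.82 and 7.03, and rose by 0.86 ± 0.21 (adjusted p = 0.0297); each e7 array was above each mock array.

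The WT 2 h e7 arrays also had higher 3'/5' log2 ratios, 4.85, 2.82, 2.09 and 3.10, against 1.47, 1.41, 1.41 and 0.93 with mock, with no overlap. With the ratio as a covariate no member was called, and 32 had an unadjusted p under 0.05 in the limma fit without it; quantile normalization gave 6 lower and none higher. Leaving out e7 replicate 4 or mock replicate 3 left no call, leaving out e7 replicate 1 or mock replicate 1 or 2 left 1 and leaving out e7 replicate 2 left 4, while without mock replicate 4 it was 11. Of the 6 members that fell 4 also fell in KO at 2 h, namely Atp5j2, Ndufa3, Ndufa4 and Ndufaf3, where 27.6% of all members fell, and Atp5j2 alone was also lower in WT at 4 h.

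The KO difference from WT in the 2 h response to e7 was tested directly as an interaction, and no member was called, with 14 at an unadjusted p under 0.05 in limma, where 0.261% of all probe sets were lower and 1.18% higher. The lowest p-values were those of Cox6c with a KO minus WT difference of -0.88 ± 0.27 (adjusted p = 0.0965), Cox6a1 with -0.71, Cox7c with -0.95 and Atp5l with -1.37. The median over the members was -0.16, and over all genes 0.20. Array weights called 6 members in this test, 3 in each direction, and the 3'/5' covariate and the fit of the compared groups alone called 1 each. The 24 falls in KO and the 6 in WT at 2 h are counts of separate tests and by themselves show no difference between the genotypes.

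KO macrophages 4 h after e7 gave no called member against mock, with 10 at an unadjusted p under 0.05 in limma, where 0.00442% of all probe sets were lower and none higher. The median difference was -0.16, against -0.05 for all genes. The 3'/5' log2 ratios were 1.18, 0.93 and 0.94 with e7, against 1.41, 1.72 and 2.61 with mock, so the e7 arrays lay below the mock arrays. The members with the lowest p were Sdhaf4 at -0.78 (adjusted p = 0.301), Ndufaf4 at -0.61, Ndufb11 at -0.40 and Ndufb3 at -0.41. In the interaction at 4 h no member was called either, with 22 at an unadjusted p under 0.05, where 0.0972% of all probe sets were higher and 0.0928% lower. There Ndufaf7 had a KO minus WT difference of -0.93 ± 0.22 (adjusted p = 0.0523), which was called after quantile normalization at -1.13 (adjusted p = 0.0421), and Ndufs1, Atp5g1 and Ndufab1 had differences of 0.65, 1.45 and 0.93. Without WT 4 h e7 replicate 4 this interaction called 18 members, and without e7 replicate 1 it called 1.

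With e6 conidia no member was called at either time in either genotype by limma, and 2 or 3 members had an unadjusted p under 0.05 in each comparison. The median differences were 0.03 in KO at 2 h, -0.07 in KO at 4 h, -0.07 in WT at 2 h and -0.06 in WT at 4 h. Of all probe sets none was higher or lower in KO at 2 h or in WT at 2 h, 0.0442% were higher and 0.0354% lower in KO at 4 h, and 0.00884% were higher and none lower in WT at 4 h. The member with the lowest p was Sdhd at -0.58 (adjusted p = 1) in KO at 2 h, Ndufaf4 at -0.69 (adjusted p = 0.24) in KO at 4 h, Ndufa4 at -0.41 (adjusted p = 1) in WT at 2 h and Ndufaf4 at 0.49 (adjusted p = 0.788) in WT at 4 h.

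Beads test whether particles without a fungal surface give the same signal in WT macrophages at 4 h. Against mock 3 members fell and none rose, where 0.583% of all probe sets fell and 0.552% rose. The median difference was -0.34, against 0.16 for all genes, and 73 of 87 members had a difference below 0, against 38.4% of all genes. Ndufa5 lay at 10.11 and 10.52 on beads arrays, against 11.18, 11.25, 11.15 and 10.78 on mock arrays, and fell by 0.78 ± 0.19 (adjusted p = 0.0345). Ndufa12 lay at 10.32 and 10.98, against 11.38, 11.70, 11.42 and 11.23, and fell by 0.78 ± 0.20 (adjusted p = 0.0449), and Ndufaf3 fell by 0.74 ± 0.19 (adjusted p = 0.0478). Both beads arrays were below every mock array in these genes, and they also had 3'/5' log2 ratios of 4.11 and 5.32, above those of all mock arrays; with the ratio as a covariate none was called, and 33 had an unadjusted p under 0.05 without it. Leaving out beads replicate 1 or mock replicate 1, 2 or 3 left no call, while leaving out beads replicate 2 gave 6 and leaving out mock replicate 4 gave 8.

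E7 conidia against beads gave 3 members higher and 1 lower, where 1.37% of all probe sets were higher and 2.22% lower. The median difference was -0.10, against -0.26 for all genes. After quantile normalization these medians were -0.015 and -0.057. Ndufa3 lay at 13.10, 13.17, 13.34 and 12.82 with e7, against 11.98 and 12.41 with beads, and rose by 0.92 ± 0.16 (adjusted p = 0.00101). Ndufa5 lay at 11.19, 10.97, 10.97 and 10.92 with e7, above both beads arrays, and rose by 0.70 ± 0.19 (adjusted p = 0.0324). Ndufa9 rose by 0.65 ± 0.18 (adjusted p = 0.036) and Ndufa10 fell by 0.83 ± 0.22 (adjusted p = 0.0338). Leaving out beads replicate 1 left no call, leaving out e7 replicate 2 or 3 left 1, and without e7 replicate 4 it was 19. The 3'/5' log2 ratios were 1.64, 2.34, 3.83 and 1.26 with e7, all below the 4.11 and 5.32 with beads. With the ratio as a covariate 7 members were higher and 7 lower, and the fit of the compared groups alone called none, with 26 at an unadjusted p under 0.05 in the limma fit of all arrays. The e7 arrays are shared with the comparison against mock.

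Mock instillation against no treatment gave 1 called member in the 4 comparisons. In WT at 2 h none was called against untreated mice and 19 had an unadjusted p under 0.05 in limma, where 0.00442% of all probe sets were higher and none lower; 74 of 87 members had a difference above 0, with a median of 0.17. Over all genes 50.2% had a difference below 0. The 3'/5' log2 ratios were 1.47, 1.41, 1.41 and 0.93 with mock, all below those of the untreated arrays, 3.92, 3.55, 1.65 and 2.43; with the ratio as a covariate no member was called. The lowest p was that of Ndufa4 at 0.63 (adjusted p = 0.235), followed by Atp5j at 0.37, Ndufaf3 at 0.48 and Cox5b at 0.42. The ratios overlapped in the other 3 comparisons of mock with untreated. In WT at 4 h none was called, with 9 at an unadjusted p under 0.05 and a median of 0.12, where 0.00442% of all probe sets were higher and 0.00884% lower. In KO at 2 h none was called, with 3 at an unadjusted p under 0.05 and a median of 0.15, where 0.00442% of all probe sets were higher and none lower. In KO at 4 h Ndufaf7 was the 1 member that rose, where 1.1% of all probe sets rose and 0.102% fell. It lay at 8.25, 8.47 and 8.34 on mock arrays, against 7.59, 7.65 and 7.54 on untreated arrays, with no overlap (0.76 ± 0.16, adjusted p = 0.0137), and was not called after quantile normalization (0.67, adjusted p = 0.0797) or without mock replicate 2.

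KO against WT macrophages over the 7 conditions both genotypes had is the comparison with most arrays, 21 against 28. On the deposited scaling 8 members were higher in KO and 9 lower, while 21.9% of all probe sets were higher and 11.6% lower. The members' shares on that scaling did not stand above the background in either direction. The median difference of the members was -0.01, that of all genes 0.09. After quantile normalization 7 members were higher and 13 lower, with medians of -0.01 for the members and -0.03 for all genes. The shares of all probe sets after that step are not given here. With the 3'/5' ratio as a covariate 7 were higher and 12 lower. Lower in KO were Cox7c by 0.44 ± 0.09 (adjusted p = 0.000161), whose second probe set was lower by 1.06, and the complex I subunits Ndufs8, Ndufb9, Ndufa13, Ndufa3 and Ndufv1, with Cox6c, Uqcrc2 and Cox7a2l, by between 0.14 and 0.37. Higher in KO were Ndufaf7 by 0.45 ± 0.06 (adjusted p = 1.53e-07), the complex II assembly factors Sdhaf1 by 0.43 ± 0.09 (adjusted p = 0.000363) and Sdhaf2 by 0.20, Atp5md by 0.39 ± 0.07 (adjusted p = 3.83e-05), Ndufs5 by 0.39 ± 0.10 and Uqcrh by 0.27. The dim isoforms Cox7a1 and Cox6a2 were higher by 0.59 and 0.55, and neither was called after quantile normalization. These are means over conditions that were not alike. Group means of Cox7c were 7.74 in KO and 7.40 in WT untreated, but 6.79 and 7.95 at 2 h with e7. For Cox6c they were 12.15 and 11.90 at 2 h with mock, but 11.06 and 11.69 at 2 h with e7. Ndufaf7 stood at 8.35 and 7.41 at 4 h with mock, but at 7.99 and 7.97 at 4 h with e7.

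In untreated mice alone no member differed between KO and WT by limma, with 8 at an unadjusted p under 0.05, where 1.15% of all probe sets were higher and 0.84% lower. Atp5md, a small subunit of the ATP synthase also called DAPIT, had the lowest p: it lay at 10.25, 10.39 and 10.11 on KO arrays, against 9.55, 9.79, 9.56 and 9.62 on WT arrays (0.62 ± 0.19, adjusted p = 0.0696). The groups did not overlap. The 3'/5' log2 ratios were 1.18, 1.51 and 3.09 in KO, against 3.92, 3.55, 1.65 and 2.43 in WT, and with the ratio as a covariate 1 member was called. Without KO untreated replicate 3 this comparison called 1 member. Nnt, the proton-translocating transhydrogenase of the same membrane and no member, was lower in KO by 0.86 ± 0.07 over the 7 conditions (adjusted p = 6.15e-12); the C57BL/6J strain is known to carry a deletion in this gene, and the labels do not say which C57Bl/6 substrain was used. Of 5 T cell markers 4 were higher in KO, with array means of 1.92 to 5.83 in KO and 1.84 to 3.65 in WT. All of these means were below a log2 signal of 6, the level used for dim probe sets. The part of strain background and of T cell RNA in these differences was not tested.

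Other mitochondrial genes were counted on 6 lists that were written from general knowledge. In WT at 4 h with e7 against mock, 45 of 74 mitochondrial ribosomal protein genes fell and 2 rose, with a median of -0.60, where 11.4% of all genes and 18.5% of those with a mean log2 signal of at least 10 fell. The smaller lists are to be read against the same shares. On the citric acid cycle list 4 of 15 genes fell and 1 rose: fumarate hydratase Fh1 fell by 1.01 ± 0.17 (adjusted p = 0.000193), Mdh2 by 0.75, Idh3g by 0.53 and Suclg1 by 0.33, while Pdha1 of pyruvate dehydrogenase rose by 0.33. Of 10 electron carriers and entry enzymes 4 fell, cytochrome c (Cycs) by 0.51, Dhodh by 0.52, Etfdh by 0.40 and Sqor by 0.35. Of 20 assembly factors outside the symbol rule 4 fell, Uqcc2 by 1.2, Cox19 by 0.69, Cox16 by 0.64 and Foxred1 by 0.49. None of 15 genes of mitochondrial gene expression and biogenesis or 10 carriers and channels was called there. These counts come from the same arrays as the members' counts and were not refitted without e7 replicates 2 and 3.

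In KO at 2 h with e7 against mock fewer genes of these lists were called. Of 74 mitochondrial ribosomal protein genes 8 fell and 2 rose, with a median of -0.35, where 2.65% of all genes fell and 6.11% of all probe sets rose. Idh3g fell by 0.70, the complex IV assembly factor Surf1 by 0.70, the porin Vdac3 by 0.57 and Atpif1, the inhibitor of the ATP synthase, by 0.60, Vdac3 and Atpif1 being on the list of carriers and channels. None of the electron carriers or biogenesis genes was called. The difference of these counts from those in WT at 4 h was not tested.

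The genes outside the rule whose group means followed the members' mean most closely over the 15 groups were Rpl8 with Pearson r of 0.955, Rrp36 with 0.953, U2af1l4 with 0.950, and Rpl35 and Rplp0 with 0.948 each, out of 12306 genes. Of these 3 encode cytosolic ribosomal proteins. The points are group means of the same arrays and share their scaling and RNA quality, so r is a description.

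**Figure D5:**
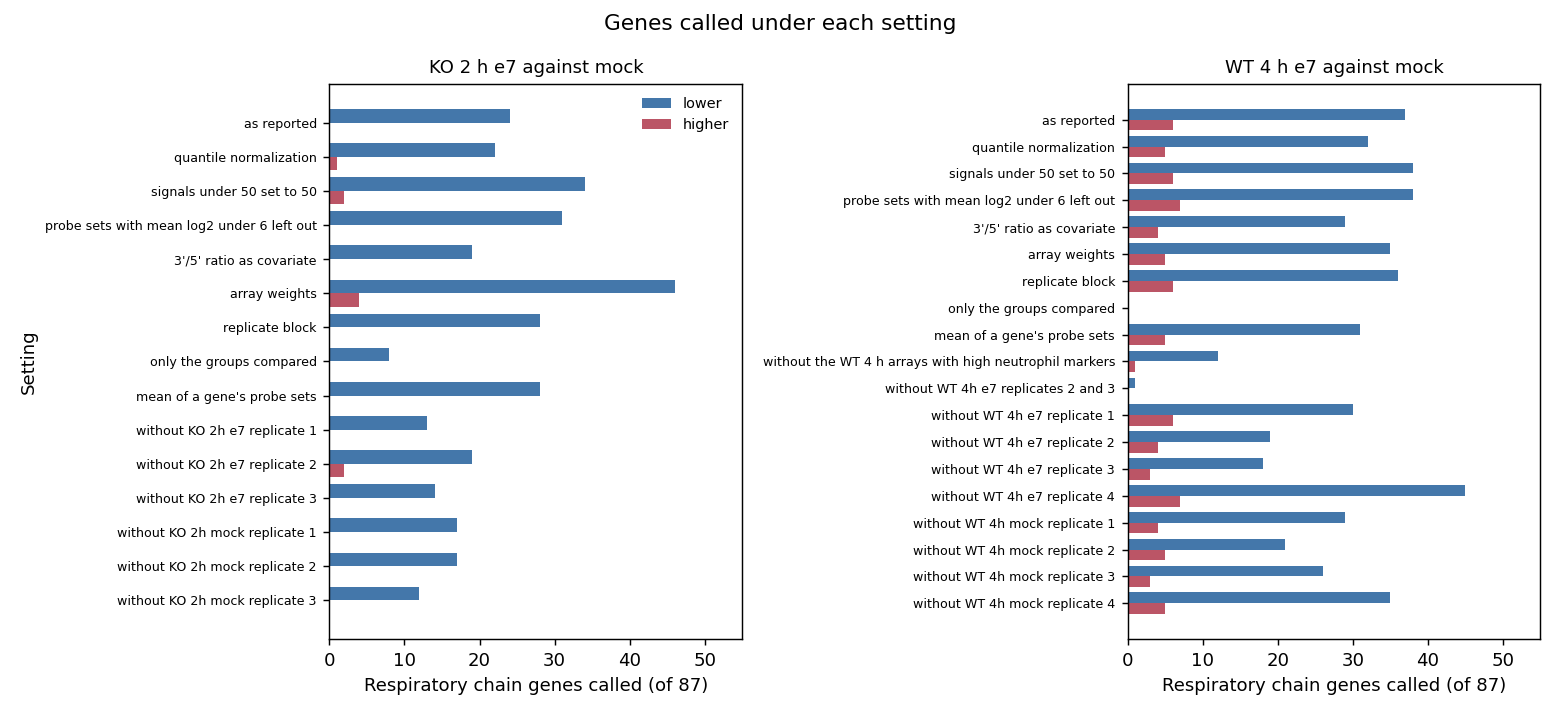
Number of members called as lower and as higher (bars) for KO at 2 h and WT at 4 h, e7 conidia against mock, under each setting of the fit, including quantile normalization, the 3'/5' ratio as a covariate and fits without doubtful arrays. The KO count was 24 as reported, 8 with the compared arrays alone and 50 with array weights; the WT count was 43 as reported, 0 with the compared arrays alone, 1 without e7 replicates 2 and 3 and 52 without e7 replicate 4.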

How the data were processed

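Expression in alveolar macrophages was measured on 51 Affymetrix mouse arrays. Per the labels' protocols, RNA was taken with RNeasy columns and labelled with biotin in 2 cycles of amplification. The authors deposited signal intensity on a linear scale for each probe set, and the submitters' processing notes name GCOS and RMA with no role or version. After trimming 2% at each end every array had a mean close to 500, the scaling that GCOS offers. No genome build is given in the sources used here.

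Intensities were taken to log2 with no pseudocount and no filter. Of 22690 probe sets, 64 controls were left out. Differences between the 15 groups were estimated on all 51 arrays by lmFit, contrasts.fit and eBayes of limma 3.58.1 (R 4.3.3), adjusted by Benjamini-Hochberg over 22626 probe sets, called at 0.05 and two-sided. The pooled spread understates the error of groups whose arrays vary more. Precision is limited by the number of arrays. The script was tested on simulated data.

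Named members were the 12 largest rises and falls among called members of a comparison, or up to 4 with the lowest p where none was called. The members and lists were chosen with earlier results of these data known. Alternatives were quantile normalization, a floor of 50, leaving out probe sets with a mean log2 under 6, the 3'/5' ratio as a covariate, array weights, a replicate block, the compared groups alone, the mean of a gene's probe sets and leaving out arrays; leaving out arrays with a neutrophil marker mean above 7 was chosen after seeing the data.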

Additional observations from a re-analysis of the deposited data

Results flagged for a closer look

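In all, 217 groups of 4 arrays were examined, over the members with printed values and the member mean. In 11 of them the distance of 1 array to its nearest neighbour took up most of the group's range. For independent values chance would mark about 1 group in 20. The groups read the same arrays over many genes, so the count of 11 cannot be set against that rate. All values are log2 signals. Array 4 of WT 4 h e7 stood above the others in Atp5l (9.22) and in Atp5j (11.82). Array 3 of the same group was low in Sdhc, at 9.37. Array 4 of WT 4 h e6 was low in Ndufa8, at 10.31, and array 3 of that group high in Sdhb, at 12.01. Array 2 of WT 2 h e6 was high in the member mean, at 10.76, and in Sdhc, at 10.28. In WT 2 h e7, Cox4i1 was high on array 1, at 13.17, and Atp5l high on array 3, at 9.17. Among mock arrays, Ndufa12 was low on array 4 at 2 h, at 11.27, and Ndufb10 high on array 2 at 4 h, at 10.78. WT 4 h e6 array 4 also had a neutrophil marker mean of 7.70 and a 3'/5' log2 ratio of 4.75, and WT 4 h e7 array 3 had 7.31 and 3.83. The part of these in the values was not tested.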

How the results depend on the processing

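The sign of the members' median held for the 3 comparisons of e7 with mock that had calls. It also held in comparisons without calls, such as KO at 4 h with e7 against mock (-0.23 to -0.13), and turned in others. The median difference of the members ran between -0.47 and -0.35 for KO at 2 h with e7, between -0.49 and -0.19 for WT at 4 h with e7 and between -0.34 and -0.18 for WT at 2 h with e7. It ran between -0.43 and -0.15 for beads against mock. It changed sign for e7 against beads (-0.21 to 0.02), KO at 4 h mock against untreated (-0.043 to 0.11), WT at 4 h with e6 (-0.13 to 0.046), KO at 2 h with e6 (-0.043 to 0.07), KO against WT (-0.036 to 0.027) and KO against WT untreated (-0.022 to 0.14). Under the fit of the compared groups alone the counts were 8 for KO at 2 h with e7, 1 for the KO minus WT difference in the 2 h response, and 0 for WT at 2 h and 4 h with e7, for beads against mock, for e7 against beads and for KO at 4 h mock against untreated. Quantile normalization called 7 with beads, 1 in the 4 h interaction and 0 for KO at 4 h mock against untreated. A signal floor of 50 called 12 for WT at 2 h with e7, 2 for KO at 4 h with e6, 16 for beads, 11 for e7 against beads and 2 in the 4 h interaction. Leaving out dim probe sets called 12, 11 and 7 for WT at 2 h with e7, beads and e7 against beads, 1 for KO against WT untreated and 7 in the 4 h interaction. The 3'/5' ratio as a covariate called 0 for WT at 2 h with e7 and for beads, 14 for e7 against beads, and 1 each for KO against WT untreated and the 2 h interaction. Array weights called 21 for WT at 2 h with e7, 50 for KO at 2 h with e7, 1 for e7 against beads, 2 for WT at 2 h mock, 3 for KO at 4 h mock, 27 for KO against WT over 7 conditions, 5 for untreated mice, and 6 and 8 in the 2 h and 4 h interactions. The mean of a gene's probe sets called 2 for KO at 4 h mock and turned the sign of Uqcrq in KO at 2 h (0.37) and of Atp5c1 (0.067) and Atp5a1 (-0.064) in WT at 4 h. Without the arrays high in neutrophil markers WT at 4 h with e7 gave 13, and without its replicates 2 and 3 it gave 1. The cause was not tested. Replicate numbers did not pair the arrays: correlations of same-numbered arrays lay between -0.0699 and 0.0809. With the replicate block the counts were 11 for WT at 2 h with e7, 42 for WT at 4 h with e7, 28 for KO at 2 h with e7, 8 for beads, 8 for e7 against beads and 21 for KO against WT. Leaving out 1 array gave 0 to 11 for WT at 2 h with e7, 21 to 52 for WT at 4 h with e7, 12 to 21 for KO at 2 h with e7, 0 to 8 for beads, 0 to 19 for e7 against beads, 0 to 1 for KO at 4 h mock, 15 to 22 for KO against WT, 0 to 1 for untreated mice and 0 to 18 in the 4 h interaction.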
